A study of Mus musculus with 36 samples.

Results

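The S100 genes encode small calcium-binding proteins, and 9 of them were followed through mouse skin wounds: S100a3, S100a4, S100a6, S100a7a, S100a8, S100a9, S100a10, S100a11 and S100a14. They were chosen by symbol from the 55414 genes counted in each library, and all 9 passed the filter on low counts that kept 20657 genes. The series, whose title concerns the clearance of p21-highly-expressing senescent cells, holds 36 libraries of bulk RNA. The PD arm of wounds comprised 17 libraries (5, 6 and 6 for days 2, 4 and 12 after injury), the P arm 16 (5, 5 and 6 for the same days), and unwounded skin, labelled day 0, 3. What the letters P and PD stand for, and the strain, genotype, agent, sex and age of the animals, are not given in the sources used here. Those sources also do not tie libraries to animals, so p-values measure the spread between libraries, which may be technical.

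S100 proteins bind calcium through EF-hand loops, mostly act as dimers, and work inside cells as calcium-dependent adaptors of annexins, myosin and other proteins. Several are also released. S100A8 and S100A9 pair as calprotectin, an abundant cytosolic protein of neutrophils that is also made by monocytes and stressed keratinocytes, withholds zinc and manganese from microbes, and signals through Toll-like receptor 4 (Tlr4) and the receptor for advanced glycation end products (Ager). Most S100 genes lie in a cluster with the epidermal differentiation genes, and several of them are used by the epidermis or the hair shaft.

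All 9 genes lie on chromosome 3 of GRCm39, among 15 protein-coding S100 genes between positions 90416091 and 93474510. In order along the chromosome they are S100a14 (ENSMUSG00000042306, 90434082 to 90436144, plus strand), S100a3 (ENSMUSG00000001021, 90491966 to 90510009, plus), S100a4 (ENSMUSG00000001020, 90511074 to 90513354, plus), S100a6 (ENSMUSG00000001025, 90520140 to 90535843, plus), S100a7a (ENSMUSG00000063767, 90561324 to 90566804, plus), S100a8 (ENSMUSG00000056054, 90567118 to 90578128, plus), S100a9 (ENSMUSG00000056071, 90599931 to 90603071, minus), S100a11 (ENSMUSG00000027907, 93414382 to 93435293, plus) and S100a10 (ENSMUSG00000041959, 93462213 to 93474510, plus). S100a4 shares 302 exonic bases, 33.3% of its own, with the predicted gene Gm42674 on the same strand, and S100a3 shares 144 bases (5.4%) with Gm42674 and 153 bases (5.7%) with S100a2. Gm42674 had 0 counts in all 36 libraries, so the levels of S100a4 and S100a3 may miss reads that fell in the shared bases, and this was not tested.

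S100a8 and S100a9 are the members with the widest range of levels, so their promoters are shown. Each runs from 250 bases before to 30 bases after the start listed by RefSeq (GRCm38.p6 table, matched without a mismatch to GRCm39), at chr3:90576128-90576407 on the plus strand for S100a8 and chr3:90602999-90603278 on the minus strand for S100a9. Capitals mark matches to the motifs searched.
S100a8: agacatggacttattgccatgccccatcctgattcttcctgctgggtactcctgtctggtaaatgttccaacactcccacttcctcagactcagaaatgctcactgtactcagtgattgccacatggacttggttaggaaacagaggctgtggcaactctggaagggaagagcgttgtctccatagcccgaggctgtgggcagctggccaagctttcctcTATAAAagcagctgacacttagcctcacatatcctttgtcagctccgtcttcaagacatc
S100a9: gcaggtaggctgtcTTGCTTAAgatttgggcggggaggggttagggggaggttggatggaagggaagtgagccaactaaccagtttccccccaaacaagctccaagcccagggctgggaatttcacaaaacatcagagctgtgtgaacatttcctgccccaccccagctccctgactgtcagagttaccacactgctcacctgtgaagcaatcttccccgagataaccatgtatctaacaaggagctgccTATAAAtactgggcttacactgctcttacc
The motifs searched on both strands were the TATA box (TATAAA), AP-1 (TGANTCA), C/EBP (TTGCNNAA), STAT (TTCNNNGAA) and NF-kB by its usual consensus. Over 32851 mouse promoters of the same table, these were held by 13.1%, 7.46%, 10.4%, 7.83% and 4.22%. S100a8 held a TATA box 30 bases before its listed start. S100a9 held a TATA box that began at base 1 after its listed start and a C/EBP match 236 bases before it. Of the 9 genes, 7 had a promoter entry, and among the other five S100a11 held 2 AP-1 matches, S100a4 and the 3rd of the 4 listed S100a3 promoters held a TATA box, S100a7a held a STAT match and S100a6 held none of the letters searched. A match is a description of the sequence and not evidence of binding.

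Libraries held 11.81 to 58.38 M counts (median 30.4 M), and levels are given as CPM, counts scaled to the size of the library after TMM correction for differences in library composition. The 9 genes together took 0.385% to 0.621% of all counts in PD day 2 wounds, 0.404% to 1.27% in PD day 4 wounds and 0.152% to 0.25% in PD day 12 wounds. In P wounds they took 0.543% to 0.889% at day 2, 0.389% to 0.878% at day 4 and 0.196% to 0.263% at day 12. In unwounded skin they took 0.0861% to 0.133%. The tissue make-up moved with these groups. Summed over 6 skeletal muscle markers, the level was 10180 to 56110 CPM in PD day 4 wounds and 3894 to 37890 CPM in P day 4 wounds, against 49880 to 80420 CPM in unwounded skin. Summed over 6 fibroblast markers, it was 12010 to 46390 CPM in PD day 12 wounds and 10700 to 86040 CPM in P day 12 wounds, against 942 to 2059 CPM in unwounded skin. In bulk tissue, fewer cells of a type and less RNA per cell cannot be told apart, and the part of tissue make-up in the results was not tested.

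A gene was called when its Benjamini-Hochberg adjusted p, from edgeR's quasi-likelihood test over 20657 genes, was under 0.05. Changes are log2 differences with a standard error (SE) or 95% interval, both worked back from the change and the F statistic of that test. Against unwounded skin, 6 of the 9 S100 genes were called higher in PD day 2 wounds (39.4% of all genes tested were called in either direction, 21% higher), 6 in PD day 4 wounds (47.1%, 25.4% higher) and 6 in PD day 12 wounds (44.9%, 24.2% higher). In P wounds 6 were called higher at day 2 (41.3%, 22.3% higher), 7 at day 4 (43.3%, 23.6% higher) and 6 at day 12 (43.7%, 23.7% higher). None of the 9 was called lower at any of the 6 wound stages in the main edgeR fit. S100a7a in P day 2 wounds came close (log2 change -1.84, edgeR adjusted p = 0.0541). Over all genes tested, 18.4%, 21.8% and 20.7% were called lower at days 2, 4 and 12 in PD wounds. In P wounds the shares were 19%, 19.7% and 20%. The median log2 change over the 9 genes lay between 0.665 and 1.61, beside 0.0214 to 0.104 over all genes tested. These 6 comparisons use the same 3 unwounded libraries. S100a6, S100a8 and S100a9 were called at all 6 stages.

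**Figure D1:**
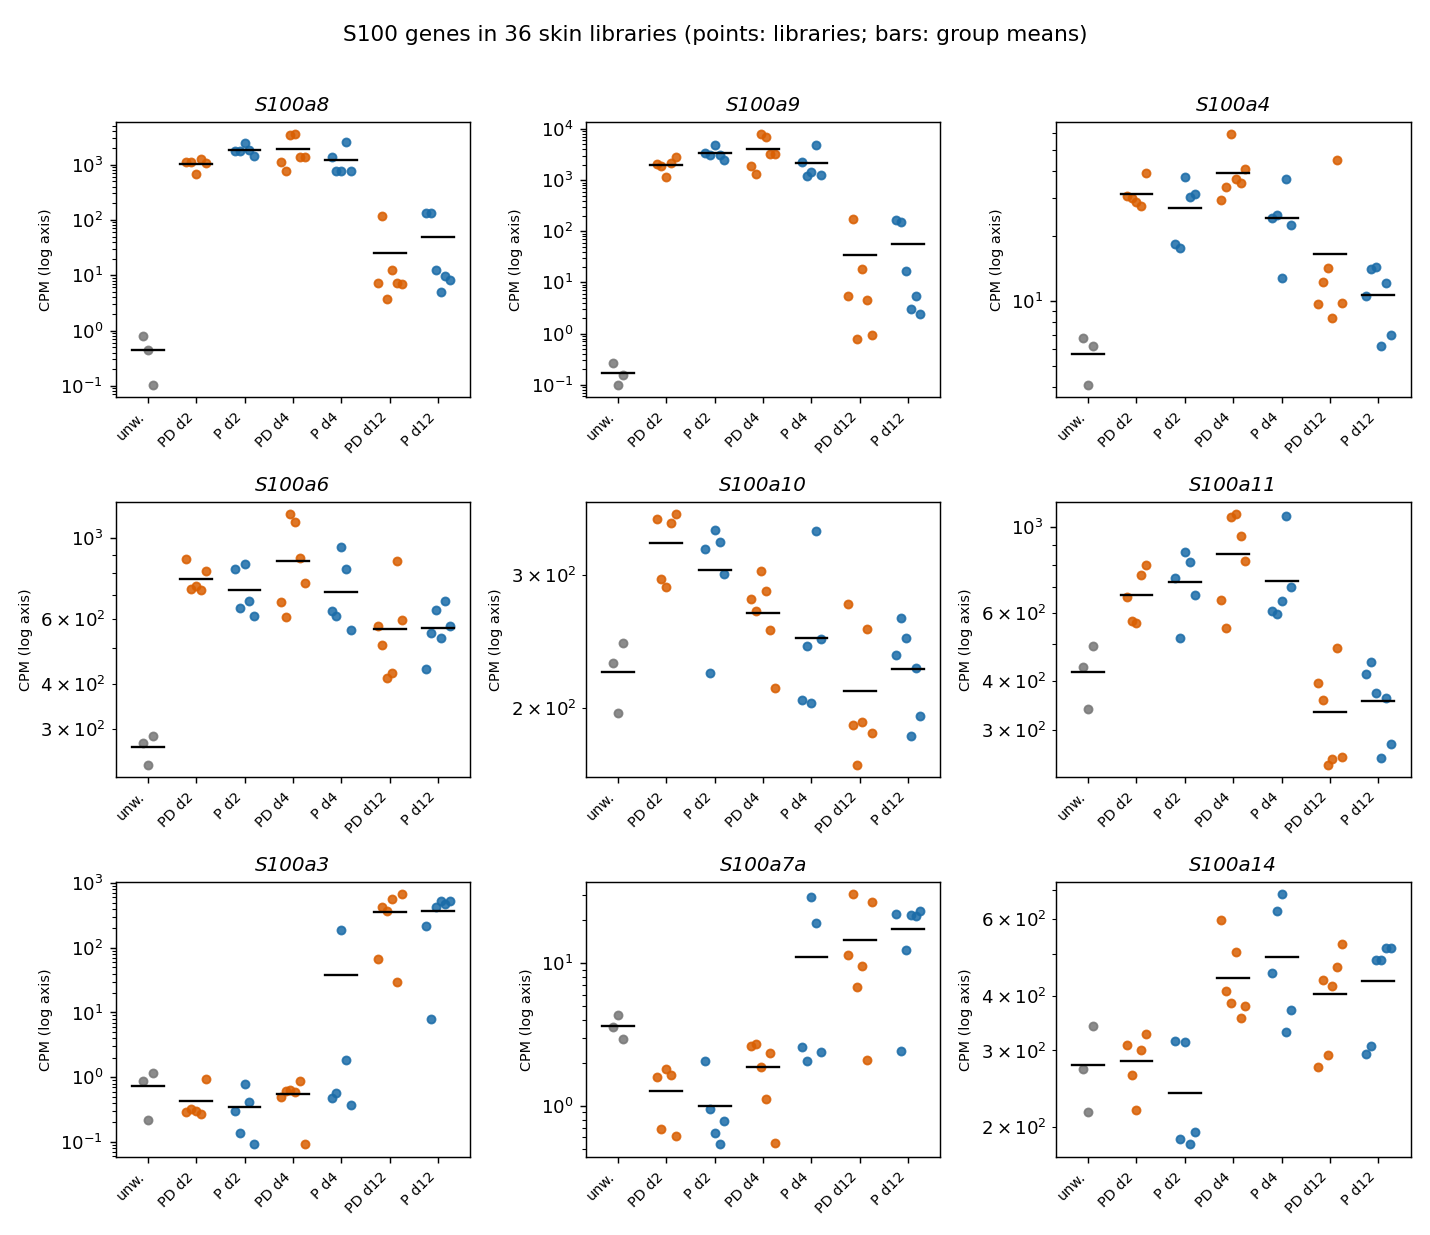
Level of each of the 9 S100 genes in every library, in TMM-scaled CPM on a log axis, by group, with each point a library and each bar the group mean. S100a8 and S100a9 lie between 662 and 7823 CPM in the day 2 and day 4 wounds and at or below 0.785 CPM in unwounded skin, and S100a3 is above 7 CPM only in the day 12 wounds and in a single P day 4 library.

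S100a8 and S100a9, the calprotectin genes, had the highest levels per kilobase of exon of the 9 genes in the day 2 and day 4 wounds of both arms. S100a8 was at 1130, 1123, 662, 1238 and 1049 CPM in PD day 2 wounds, and at 1790, 1754, 2427, 1850 and 1438 CPM in P day 2 wounds. In PD day 4 wounds it ran from 748 to 3486 CPM with a median of 1380 CPM, and in P day 4 wounds it was at 1345, 748, 771, 2503 and 773 CPM. By day 12 it ran from 3.65 to 116 CPM in PD wounds (median 7.17) and from 5.05 to 132 CPM in P wounds (median 11.1). Unwounded skin had 0.785, 0.439 and 0.105 CPM, so the wounds at every stage lay wholly above it. The unwounded level rests on 45 counts of S100a8 in all, which leaves the size of each fold change loose.

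S100a9 followed the same course. It was at 2052, 1852, 1174, 2187 and 2783 CPM in PD day 2 wounds, and at 3385, 3043, 4788, 3166 and 2455 CPM in P day 2 wounds. In PD day 4 wounds it ran from 1328 to 7823 CPM (median 3303), and in P day 4 wounds it was at 2240, 1219, 1413, 4941 and 1259 CPM. By day 12 it ran from 0.781 to 172 CPM in PD wounds (median 4.98) and from 2.4 to 168 CPM in P wounds (median 11.2). Unwounded skin had 0.262, 0.0997 and 0.157 CPM, from 15 counts in all, and the wounds of every group lay above it.

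Against unwounded skin, S100a8 was higher by a log2 change of 11.14 (SE 1.61, edgeR adjusted p = 2.9e-06) in PD day 2 wounds, 12.01 (SE 1.66, adjusted p = 8.64e-07) in PD day 4 wounds and 5.79 (SE 1.3, adjusted p = 0.000679) in PD day 12 wounds. In P wounds its change was 11.97 (SE 1.66) at day 2, 11.38 (SE 1.63) at day 4 and 6.76 (SE 1.36) at day 12, with an edgeR adjusted p of 0.000195 or less at each. S100a9 was higher by 13.54 (SE 2.26) at day 2, 14.58 (SE 2.32) at day 4 and 7.64 (SE 1.87) at day 12 in PD wounds, with an edgeR adjusted p of 0.00152 or less. In P wounds S100a9 was higher by 14.29 (SE 2.31), 13.68 (SE 2.27) and 8.42 (SE 1.92) at days 2, 4 and 12, with an edgeR adjusted p of 0.00076 or less. The day 12 sizes lean on a few libraries. Without PD day 12 replicate 2, the PD day 12 changes were 4.00 for S100a8 and 5.12 for S100a9, and limma-voom with sample weights gave 4.02 and 4.44 for these genes in P day 12 wounds, all with an adjusted p under 0.05.

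From day 4 to day 12 both genes fell in both arms. Day 12 stood against day 4 at a log2 change of -6.22 (SE 0.93, edgeR adjusted p = 5.12e-06) for S100a8 and -6.93 (SE 1.22, adjusted p = 4.77e-05) for S100a9 in PD wounds. In P wounds it was -4.62 (SE 0.87, adjusted p = 0.000244) for S100a8 and -5.26 (SE 1.14, adjusted p = 0.00104) for S100a9. Between days 2 and 4 neither gene was called in either arm.

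Most neutrophil markers moved with these genes. Against unwounded skin, all 10 were called higher at days 2 and 4 in both arms. At day 12, 6 were higher and 1 lower in PD wounds, and 9 and 1 in P wounds. Of all genes tested, 21% to 25.4% were called higher and 18.4% to 21.8% lower over these stages. From day 4 to day 12, 8 fell and 0 rose in PD wounds (15.6% of all genes lower), and 8 fell and 1 rose in P wounds (12.6% lower). Summed over 10 markers, the level was 727 to 1379 CPM in PD day 2 wounds and 1234 to 2883 CPM in P day 2 wounds, 689 to 3340 CPM in PD day 4 wounds and 614 to 2286 CPM in P day 4 wounds, and 25.1 to 107 CPM in PD day 12 wounds and 22.8 to 206 CPM in P day 12 wounds. In unwounded skin it was 63.9 to 88.3 CPM, nearly all of it Il1r2 (62 to 87.8 CPM), with Ly6g, Retnlg, Ngp and Trem1 at 0 in all 3 libraries. Cxcr2, the neutrophil chemokine receptor, was at 11.3 CPM in PD day 12 replicate 2 and at 11.5 and 22.9 CPM in P day 12 replicates 1 and 2, and at or below 2.14 CPM in the other day 12 wounds. Those are the 3 day 12 libraries with the highest S100a8. Retnlg was also highest in them, at 6.47, 5.01 and 2.39 CPM, and at or below 1.07 CPM in the other day 12 wounds. Ly6g and Il1r2 did not set them apart. In the same order, Ly6g was at 0, 0.374 and 0.226 CPM, and Il1r2 at 34, 15.3 and 32.6 CPM. The other day 12 wounds reached 0.299 CPM for Ly6g and 30.9 CPM for Il1r2. Monocyte and macrophage markers (10 genes) summed to 3380 to 6027 CPM in PD day 4 wounds and 1916 to 6664 CPM in P day 4 wounds, against 147 to 405 CPM in unwounded skin. Wound keratinocyte markers (7 genes, among them Slpi) summed to 2052 to 26710 CPM in PD day 4 wounds and 8342 to 21460 CPM in P day 4 wounds, against 653 to 905 CPM in unwounded skin. The part of these cells in the S100a8 and S100a9 levels was not tested.

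Across the 36 libraries, S100a8 and S100a9 had a Pearson r of 0.991 (log2 CPM), a description over libraries that share the wound stages. Out of 15398 genes searched, those most like S100a8 were Slpi (r = 0.992), Mcemp1 (0.987) and Cd300lf (0.985), and those most like S100a9 were Cxcr2 (0.99), Slpi (0.988) and Trem1 (0.987), each over 36 libraries.

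The balance within the pair differed between stages. The ratio of S100a9 counts to S100a8 counts was 1.65 to 2.65 in PD day 2 wounds and 1.77 to 2.42 in PD day 4 wounds, and 0.137 to 1.48 (median 0.695) in PD day 12 wounds. In P wounds it was 1.71 to 1.97 at day 2, 1.63 to 1.97 at day 4 and 0.296 to 1.38 (median 0.866) at day 12. Unwounded skin had ratios from 0.227 to 1.5, from few counts. No day 12 library of either arm reached the lowest day 2 or day 4 ratio. On the log2 scale the ratio was lower at day 12 than at day 4 by 1.91 in PD wounds (difference -1.91, two-sided exact permutation test p = 0.00216, the smallest 6 against 6 libraries can give, Benjamini-Hochberg adjusted 0.0151 over 7 comparisons). In P wounds the difference was -1.20 (exact permutation p = 0.00866, adjusted 0.0303). The difference between PD and P day 4 wounds was 0.267 (exact permutation p = 0.0411, adjusted 0.0959), and the other 4 comparisons had adjusted values of 0.626 to 0.77. This ratio was chosen after its values were seen. Leaving out each library gave differences of -2.19 to -1.50 in PD wounds and -1.37 to -0.93 in P wounds.

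**Figure D2:**
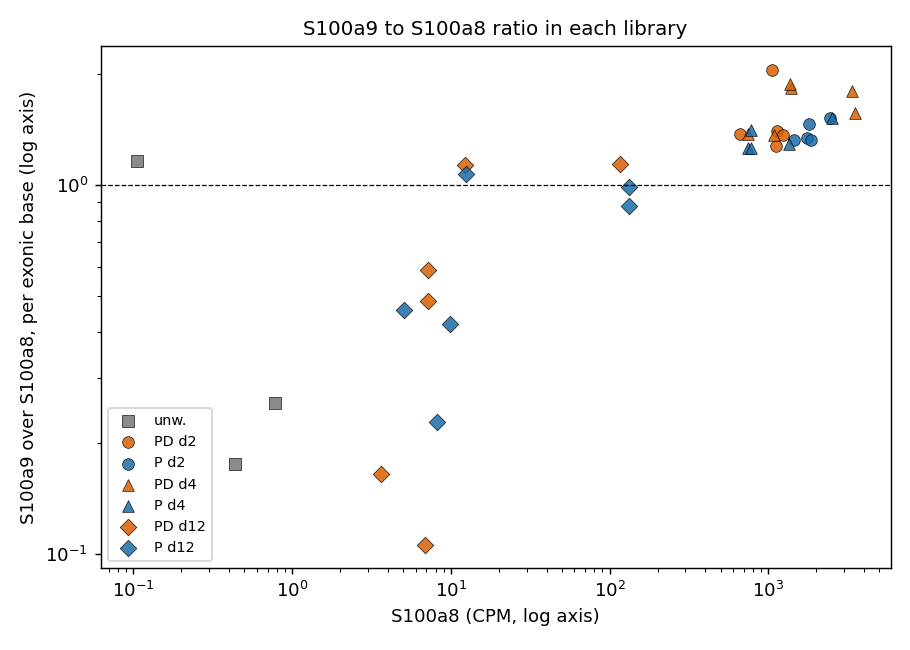
Ratio of S100a9 to S100a8 per exonic base (vertical, log axis) against the S100a8 level in CPM (horizontal, log axis), with each point a library coloured by group. The ratio is above 1 in every day 2 and day 4 wound, and below 1 in 4 of 6 PD day 12 wounds, 5 of 6 P day 12 wounds and 2 of 3 unwounded samples.

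S100a4, S100a6, S100a10 and S100a11 are broadly expressed S100 genes that act within many cell types. S100A4 binds nonmuscle myosin and is used as a marker of fibroblasts and some myeloid cells, S100A6 (calcyclin) binds annexins and calcyclin-binding protein, S100A10 holds annexin A2 in a complex at the cell membrane and differs from its relatives in not binding calcium, and S100A11 is a partner of annexin A1 in keratinocytes.

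S100a4 averaged 31.2 ± 4.53 CPM (SD, n = 5) in PD day 2 wounds and 27.1 ± 8.77 CPM (n = 5) in P day 2 wounds, 39.2 ± 10.4 CPM (n = 6) in PD day 4 wounds and 24.4 ± 8.58 CPM (n = 5) in P day 4 wounds, and 16.5 ± 14 CPM (n = 6) in PD day 12 wounds and 10.7 ± 3.51 CPM (n = 6) in P day 12 wounds. Unwounded skin averaged 5.67 ± 1.38 CPM (n = 3). The day 2 and day 4 wounds, from 12.8 CPM up, lay above all 3 unwounded libraries, at 4.11 to 6.73 CPM. S100a4 was called higher in PD wounds at day 2 (log2 change 2.46, SE 0.45, edgeR adjusted p = 6.09e-05), day 4 (2.79, SE 0.45, adjusted p = 8.45e-06) and day 12 (1.55, SE 0.42, adjusted p = 0.00375). In P wounds it was called at day 2 (2.26, SE 0.44, adjusted p = 0.000132) and day 4 (2.1, SE 0.44, adjusted p = 0.000306). At day 12 in P wounds its edgeR adjusted p was 0.0655. The PD day 12 mean holds replicate 5 at 44.8 CPM, beside 8.33 to 14.2 CPM in the other 5, and without it the change was 1.01 and still called by edgeR. The call was lost when only the compared libraries were fitted (adjusted p = 0.0513). The direct comparison of the arms at day 12 had an edgeR adjusted p of 0.884 for S100a4.

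S100a6 was higher in wounds of every stage. It averaged 773 ± 66.9 CPM (SD, n = 5) in PD day 2 wounds, 862 ± 228 CPM (n = 6) in PD day 4 wounds and 564 ± 165 CPM (n = 6) in PD day 12 wounds. In P wounds it averaged 719 ± 107 CPM (n = 5) at day 2, 713 ± 161 CPM (n = 5) at day 4 and 567 ± 82.0 CPM (n = 6) at day 12, and in unwounded skin 268 ± 24.4 CPM (n = 3). All 33 wounds, from 414 CPM up, lay above the unwounded range of 240 to 287 CPM. The log2 change was 1.53 (SE 0.23), 1.69 (SE 0.22) and 1.07 (SE 0.22) in PD wounds at days 2, 4 and 12, and 1.43 (SE 0.22), 1.41 (SE 0.22) and 1.08 (SE 0.22) in P wounds, with an edgeR adjusted p of 0.000201 or less at each stage. In PD wounds S100a6 was lower at day 12 than at day 4 by a log2 change of -0.61 (SE 0.17, edgeR adjusted p = 0.00534), a call that was lost on library totals without TMM (-0.39, adjusted p = 0.076) and with only the compared libraries fitted (adjusted p = 0.0596).

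S100a11 was called higher at days 2 and 4 and not at day 12. It averaged 671 ± 105 CPM (SD, n = 5) in PD day 2 wounds, 853 ± 219 CPM (n = 6) in PD day 4 wounds and 333 ± 99.6 CPM (n = 6) in PD day 12 wounds. In P wounds it averaged 721 ± 135 CPM (n = 5), 725 ± 199 CPM (n = 5) and 355 ± 77.5 CPM (n = 6) at days 2, 4 and 12, and in unwounded skin 423 ± 79.0 CPM (n = 3). It was called higher than unwounded skin at day 4 in PD wounds (log2 change 1.01, SE 0.25, edgeR adjusted p = 0.00139) and in P wounds (0.78, SE 0.25, adjusted p = 0.0137), and at day 2 in PD wounds (0.66, SE 0.25, adjusted p = 0.0354) and in P wounds (0.77, SE 0.25, adjusted p = 0.015). Without unwounded replicate 2 the calls at day 2 in PD wounds (adjusted p = 0.122) and at days 2 and 4 in P wounds (0.0792 and 0.0693) were lost, and the PD day 2 call was also lost without unwounded replicate 1 (0.0513) or PD day 2 replicate 4 (0.063) or 5 (0.075). From day 4 to day 12 it fell by 1.36 on the log2 scale in PD wounds (edgeR adjusted p = 3.61e-06) and by 1.03 in P wounds (adjusted p = 0.000411).

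S100a10 had group means between 211 and 331 CPM over the 7 groups. It averaged 331 ± 35 CPM (SD, n = 5) in PD day 2 wounds and 305 ± 48.8 CPM (n = 5) in P day 2 wounds, against 223 ± 23.9 CPM (n = 3) in unwounded skin. It was called higher at day 2 in PD wounds (log2 change 0.57, SE 0.17, edgeR adjusted p = 0.01) and in P wounds (0.45, SE 0.17, adjusted p = 0.0376). The P day 2 call was lost without unwounded replicate 1 or 2, or P day 2 replicate 1, 3 or 4 (adjusted p of 0.0586 to 0.136), and with no filter on low counts (0.0634). At days 4 and 12 it was not called in either arm, with means of 267 ± 31.7 and 211 ± 43.1 CPM (n = 6 each) in PD wounds and 248 ± 57.1 CPM (n = 5) and 225 ± 30.6 CPM (n = 6) in P wounds.

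S100a3, S100a7a and S100a14 belong to epithelium. S100A3 is a protein of the hair cuticle, S100a7a is a mouse relative of human psoriasin, a keratinocyte protein of inflamed epidermis, and S100A14 is made by epithelial cells. S100a3 was near or below 1 CPM in most libraries before day 12. It was at 0.288, 0.326, 0.298, 0.275 and 0.941 CPM in PD day 2 wounds and at 0.303, 0.139, 0.785, 0.416 and 0.093 CPM in P day 2 wounds. In PD day 4 wounds it ran from 0.0918 to 0.876 CPM (median 0.608), and in P day 4 wounds it was at 0.484, 0.578, 187, 1.85 and 0.374 CPM. At day 12 it ran from 29.1 to 674 CPM in PD wounds (median 401) and from 7.81 to 532 CPM in P wounds (median 454), against 0.86, 0.219 and 1.15 CPM in unwounded skin. Every day 12 wound lay above all unwounded and day 2 libraries, and P day 4 replicate 3 alone stood among them before day 12.

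At day 12 S100a3 was higher than in unwounded skin by a log2 change of 9.0 (SE 1.97, edgeR adjusted p = 0.000516) in PD wounds and 9.04 (SE 1.97, adjusted p = 0.000479) in P wounds. With 2 surrogate variables these were 7.94 and 7.08, both still called. The change from day 4 to day 12 was 9.25 (SE 1.44, edgeR adjusted p = 9.2e-06) in PD wounds and 3.26 (SE 1.15, adjusted p = 0.0366) in P wounds. The second value rests on P day 4 replicate 3: without it the change was 8.91 (adjusted p = 6.37e-07), and without any other P day 4 library, or P day 12 replicate 3, 4, 5 or 6, the call was lost (adjusted p of 0.0514 to 0.0779). P day 4 wounds were called higher than unwounded skin (5.77, SE 1.73, edgeR adjusted p = 0.0079) and than P day 2 wounds (6.86, SE 1.46, adjusted p = 0.00377). Without P day 4 replicate 3 these were 0.14 (adjusted p = 0.933) and 1.22 (adjusted p = 0.533), and limma-voom with sample weights gave -0.16 and 1.37, neither called.

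Hair genes moved with S100a3. Summed over 11 genes of the hair shaft and inner root sheath, the level was 616 to 11860 CPM in PD day 12 wounds and 516 to 12090 CPM in P day 12 wounds, against 10.5 to 14.9 CPM in unwounded skin. It was 7005 CPM in P day 4 replicate 3 and 2.3 to 15.7 CPM in the other 4 P day 4 wounds. The day 12 libraries with the least S100a3 were P replicate 2 at 7.81 CPM, PD replicate 5 at 29.1 CPM and PD replicate 1 at 67.2 CPM, with hair sums of 516, 616 and 2213 CPM. Melanocyte markers (5 genes) summed to 37.6 to 1219 CPM in PD day 12 wounds and 106 to 1256 CPM in P day 12 wounds, against 8.12 to 8.56 CPM in unwounded skin. Among 15398 genes the most like S100a3 over 36 libraries were Krt87 (r = 0.98) and Krt31 (0.98, itself among the 11 summed genes), which encode hair keratins, and Tgm6 (0.978), a transglutaminase. The part of hair-bearing tissue in the S100a3 level was not tested.

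**Figure D3:**
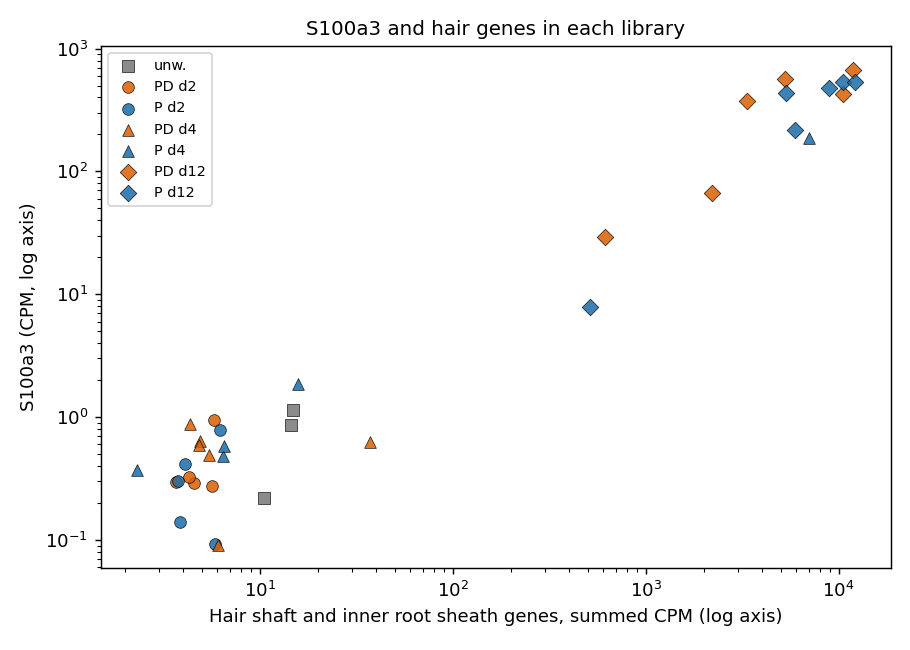
S100a3 level in CPM (vertical, log axis) against the summed CPM of 11 hair shaft and inner root sheath genes (horizontal, log axis), with each point a library coloured by group. The 12 day 12 wounds and P day 4 replicate 3 hold sums of 516 CPM or more, and the other 23 libraries hold sums of 37.4 CPM or less.

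S100a7a and S100a3 had a Pearson r of 0.849 over 36 libraries (log2 CPM). It was at 1.6, 0.684, 1.82, 1.65 and 0.616 CPM in PD day 2 wounds and 2.05, 0.949, 0.647, 0.535 and 0.775 CPM in P day 2 wounds. At day 4 it ran from 0.551 to 2.7 CPM (median 2.11) in PD wounds and was at 2.58, 2.08, 29.4, 19.2 and 2.39 CPM in P wounds. At day 12 it ran from 2.09 to 30.6 CPM (median 10.5) in PD wounds and from 2.42 to 23.4 CPM (median 21.6) in P wounds, and it was at 3.55, 4.35 and 2.94 CPM in unwounded skin. All day 2 wounds lay below the unwounded range. The log2 change at day 2 was -1.84 (SE 0.77, edgeR adjusted p = 0.0541) in P wounds. In PD wounds it was -1.50 (SE 0.765, adjusted p = 0.12), and neither was called. P day 4 replicate 4 was high for S100a7a with a hair sum of only 15.7 CPM. The gene was called higher at day 12 in PD wounds (log2 change 2.01, SE 0.81, edgeR adjusted p = 0.0441) and in P wounds (2.26, SE 0.83, adjusted p = 0.0268). Both calls were lost with no filter on low counts, with 2 surrogate variables and without any of the 3 unwounded libraries (adjusted p of 0.0504 to 0.112), and the PD call was also lost without PD day 12 replicate 2 (0.0947) or 6 (0.0843). Day 12 was higher than day 4 in PD wounds (2.95, SE 0.65, edgeR adjusted p = 0.000728), and day 4 was higher than day 2 in P wounds (3.46, SE 0.73, adjusted p = 0.00369). Without P day 4 replicate 3 the second change was 2.68 (adjusted p = 0.0184), and limma-voom gave 1.93 (adjusted p = 0.0592). Its most similar genes were Prr9 (r = 0.936), Tchhl1 (0.919) and Krtap17-1 (0.907).

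S100a14 was called higher at day 4 in both arms and at day 12 in P wounds. It averaged 284 ± 42.8 CPM (SD, n = 5) in PD day 2 wounds, 439 ± 92.8 CPM (n = 6) in PD day 4 wounds and 403 ± 99.6 CPM (n = 6) in PD day 12 wounds. In P wounds it averaged 239 ± 69.4 CPM (n = 5), 493 ± 156 CPM (n = 5) and 433 ± 104 CPM (n = 6) at days 2, 4 and 12, and in unwounded skin 277 ± 62.6 CPM (n = 3). It was called higher than unwounded skin at day 4 in PD wounds (log2 change 0.66, SE 0.26, edgeR adjusted p = 0.0327), at day 4 in P wounds (0.83, SE 0.26, adjusted p = 0.0119) and at day 12 in P wounds (0.65, SE 0.26, adjusted p = 0.0405). In PD day 12 wounds it missed the threshold (edgeR adjusted p = 0.0818). Without unwounded replicate 2 the 3 calls were lost (adjusted p of 0.141, 0.0628 and 0.151). The PD day 4 call was also lost with no filter on low counts (0.0503) and without PD day 4 replicate 1 (0.0739) or unwounded replicate 1 (0.0676), and the P day 12 call with 2 surrogate variables (0.206) and without unwounded replicate 1 (0.0737) or P day 12 replicate 3, 4, 5 or 6 (0.0528 to 0.0721). P day 4 wounds were higher than P day 2 wounds by 1.04 (SE 0.22, edgeR adjusted p = 0.00404). In PD wounds day 4 was not called against day 2 by edgeR (adjusted p = 0.0874), and DESeq2, limma-voom and the fit with 2 surrogate variables each called it. S100a16, its neighbour in the family, was the gene most like it (r = 0.89).

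**Figure D4:**
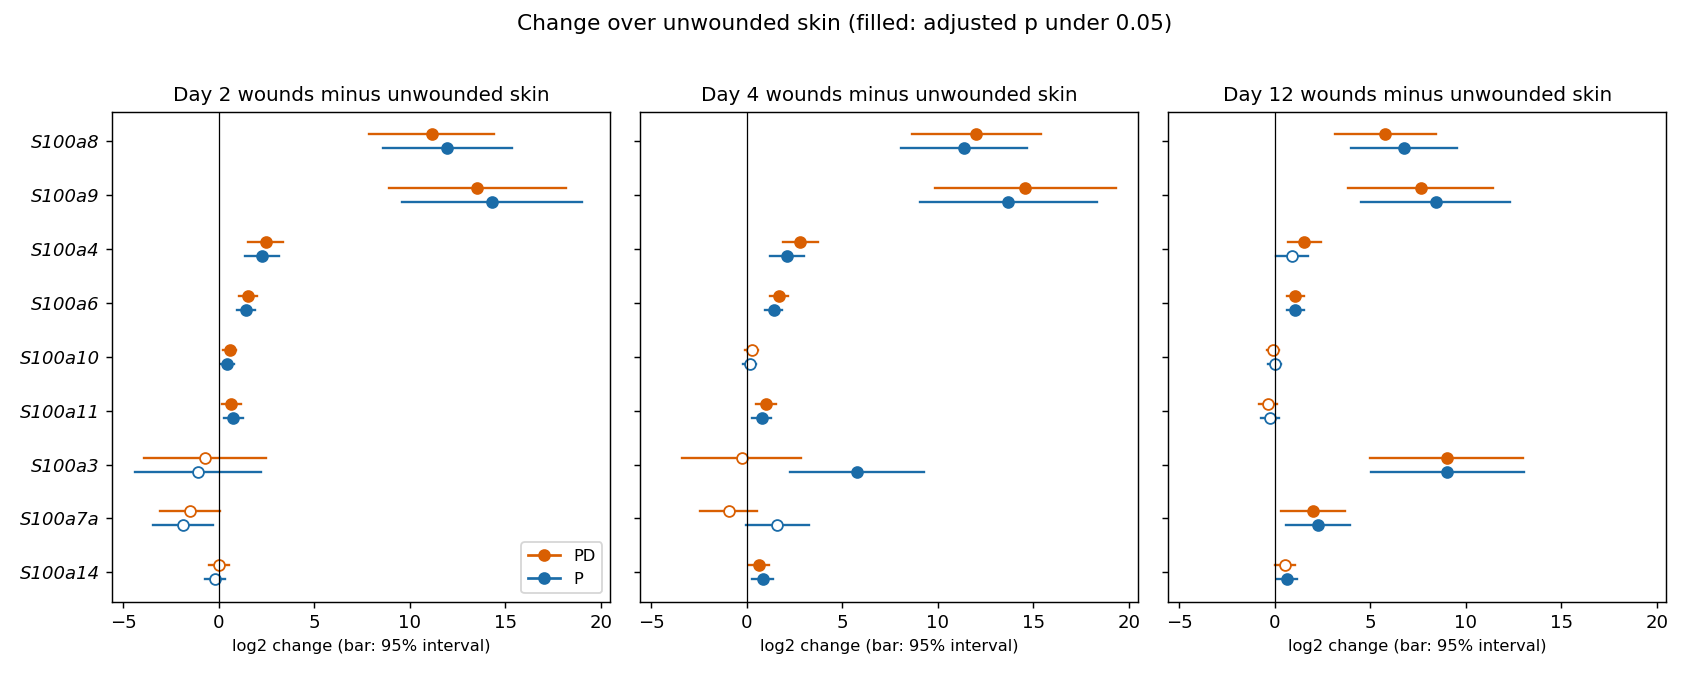
Log2 change of each S100 gene over unwounded skin at days 2, 4 and 12, with PD and P wounds side by side, points for the edgeR estimate and bars for the 95% interval. S100a8 and S100a9 reach 11.14 to 14.58 at days 2 and 4 and S100a3 reaches 9.0 and 9.04 at day 12, and all 6 estimates of S100a6 lie between 1.07 and 1.69.

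The order of the 9 genes by group mean level per kilobase of exon changed with stage. Exon length was every base that GENCODE M39 annotates as exon in a gene, from 908 bases for S100a4 to 6944 for S100a10. The annotation used for counting is not given, and the order depends on these lengths. In PD and P day 2 and day 4 wounds it began with S100a9, S100a8, S100a6 and S100a11. In day 12 wounds of both arms it began with S100a6 (240 CPM per kilobase in PD wounds and 241 in P wounds), S100a14 (208 and 223), S100a3 (134 and 137) and S100a11 (125 and 133). In unwounded skin it began with S100a11 (158), S100a14 (143) and S100a6 (114), and S100a8 (0.45), S100a3 (0.279) and S100a9 (0.136) came last. At day 12, the means of S100a3 and S100a11 differed by less than the spread of S100a3 between libraries in both arms, as did those of S100a6 and S100a14 beside the spread of S100a6. In unwounded skin the neighbours S100a11 and S100a14, and S100a14 and S100a6, also lay within the spread of S100a14.

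PD and P wounds of the same day were then compared, the contrast the labels set up. None of the 9 genes, and 0 of all genes tested (0%), passed the edgeR threshold at day 2, day 4 or day 12. At an unadjusted p under 0.05 there were 0 of 9 at day 2 (793 of all genes), 3 of 9 at day 4 (2369 of all genes) and 0 of 9 at day 12 (1022 of all genes). DESeq2 called 24 genes at day 2, 182 at day 4 and 0 at day 12, and limma-voom with sample weights called 1, 2056 and 0. Of the S100 genes, DESeq2 called S100a3 and S100a7a at day 4, limma-voom called S100a4 and S100a6 at day 4, and neither called any at day 2 or 12.

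At day 2, S100a8 had a PD minus P log2 difference of -0.83 (95% interval -2.49 to 0.83, edgeR adjusted p = 1) and S100a9 one of -0.74 (-2.85 to 1.36). The highest PD day 2 library for S100a8, at 1238 CPM, lay below the lowest P day 2 library, at 1438 CPM. S100a8 was the only one of the 9 genes whose ranges did not overlap at that day, beside 1.68% of all genes tested (1.4% lower in PD, 0.286% higher). The neutrophil marker sums of 4 of the 5 PD day 2 wounds also lay below the lowest P day 2 sum, and their part in the result was not tested. The other 7 genes had day 2 differences between -0.10 and 0.37.

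At day 4 the largest differences were those of S100a3 (-6.03, 95% interval -8.66 to -3.39, edgeR adjusted p = 0.0824) and S100a7a (-2.55, -3.90 to -1.20, adjusted p = 0.189). For S100a3 the difference rests on P day 4 replicate 3: without it the value lay at -0.38, and without any other P day 4 library it was -6.35 to -6.34 and passed the threshold (adjusted p of 0.0255 to 0.0357). The S100a7a difference was -1.77 without P day 4 replicate 3 (edgeR adjusted p = 0.816) and -0.96 with limma-voom (adjusted p = 0.408). S100a4 had a PD minus P difference of 0.69 (0.01 to 1.37, edgeR adjusted p = 0.432) at day 4, at 29.5 to 59.1 CPM in PD wounds and 12.8 to 36.9 CPM in P wounds. S100a8 (0.64, -0.96 to 2.23) and S100a9 (0.90, -1.14 to 2.94) had intervals that hold a change of 2 log2 units, while S100a6 (0.27, -0.09 to 0.63), S100a10 (0.11, -0.18 to 0.40), S100a11 (0.23, -0.18 to 0.65) and S100a14 (-0.17, -0.60 to 0.27) were bounded within 1 log2 unit. No member's ranges were apart at day 4 or day 12, beside 0.31% (0.174% higher, 0.136% lower) and 0.131% (0.0678% higher, 0.0629% lower) of all genes tested.

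At day 12 the differences ran from -0.96 for S100a8 (95% interval -2.48 to 0.56, edgeR adjusted p = 0.887) to 0.62 for S100a4 (-0.02 to 1.27, adjusted p = 0.884). The S100a4 difference was 0.02 without PD day 12 replicate 5, and the S100a8 difference was -2.75 without PD day 12 replicate 2 and -0.39 without P day 12 replicate 1 or 2, none of them called. S100a3 differed by -0.04 with an interval of -2.02 to 1.95, S100a9 by -0.78 (-2.70 to 1.15) and S100a7a by -0.25 (-1.46 to 0.97). The S100a9 difference was -3.30 without PD day 12 replicate 2 and -0.08 without P day 12 replicate 1, neither called. S100a6 (-0.01, -0.35 to 0.33), S100a10 (-0.09, -0.37 to 0.18), S100a11 (-0.10, -0.49 to 0.30) and S100a14 (-0.10, -0.52 to 0.31) had the narrowest intervals. A p that misses the threshold does not show that the arms are alike. The change of the PD minus P difference between days 2 and 4, and between days 4 and 12, was called for 0 of 9 genes and 0% of all genes by edgeR, at an unadjusted p under 0.05 for 2 of 9 in each case (1472 and 623 of all genes). DESeq2 called 78 and 89 genes and limma-voom 2797 and 1. S100a3 was the only S100 gene called by DESeq2 in either (adjusted p = 0.00663 and 0.00566), with the same P day 4 library in both.

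**Figure D5:**
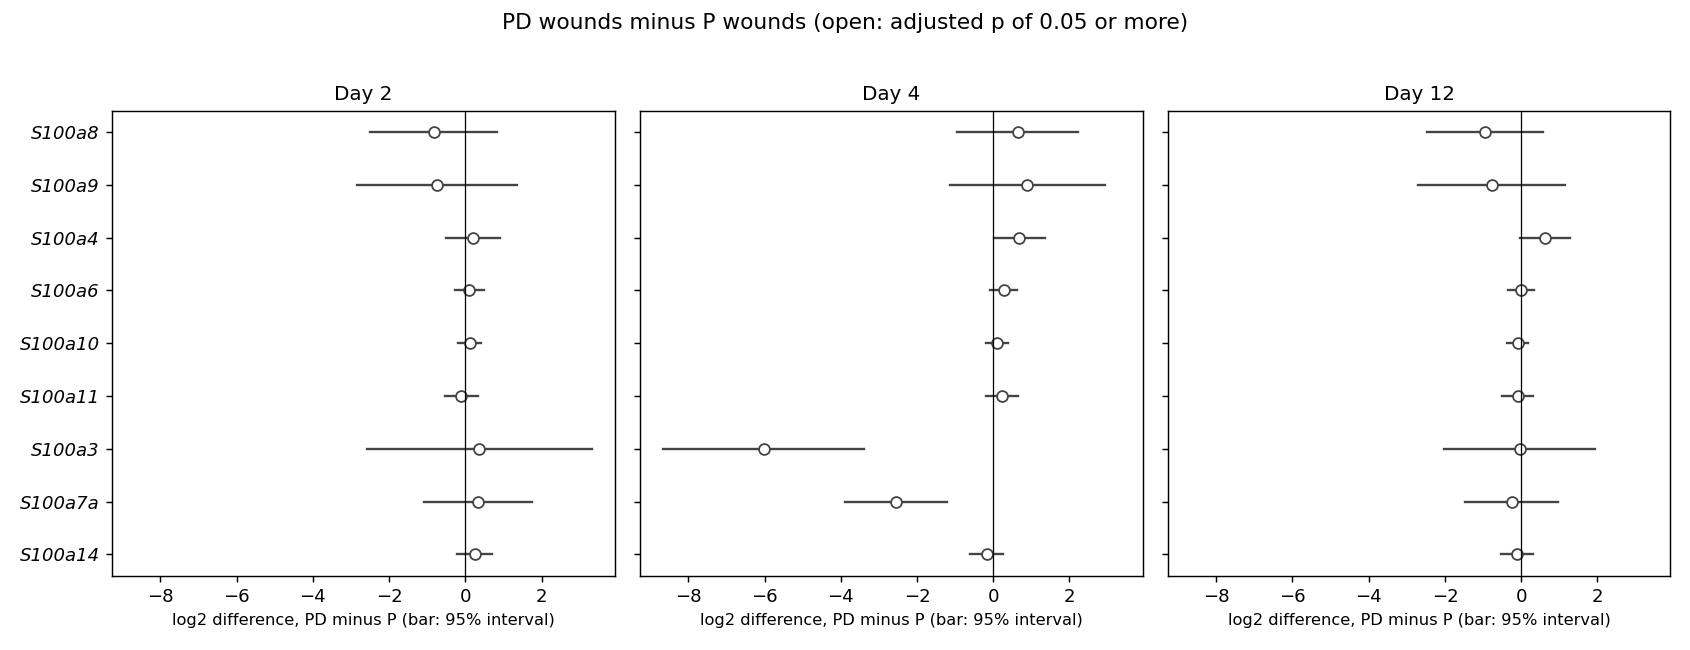
PD minus P log2 difference of each S100 gene at days 2, 4 and 12, with points for the edgeR estimate and bars for the 95% interval. The intervals of S100a3 (-8.66 to -3.39) and S100a7a (-3.90 to -1.20) at day 4 lie below 0, and none of the 27 differences passed the adjusted threshold.

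Between days, 2 of the 9 genes rose (S100a3 and S100a7a) and 5 fell (S100a4, S100a6, S100a8, S100a9 and S100a11) from day 4 to day 12 in PD wounds, beside 31.3% of all genes tested (15.7% higher, 15.6% lower). In P wounds 1 rose (S100a3) and 4 fell (S100a4, S100a8, S100a9 and S100a11), beside 23.8% (11.2% higher, 12.6% lower). From day 2 to day 4 none of the 9 was called in PD wounds by edgeR (4.26% of all genes, 2.67% higher and 1.59% lower, and 2 of 9 at an unadjusted p under 0.05), and 3 were called higher in P wounds (S100a3, S100a7a and S100a14, beside 8.45%, 5.76% higher and 2.7% lower). S100a4 was lower at day 12 than at day 4 by a log2 change of -1.25 (SE 0.32, edgeR adjusted p = 0.00301) in PD wounds and -1.18 (SE 0.33, adjusted p = 0.00921) in P wounds.

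The receptors of secreted S100 proteins form a list of 8 genes, all tested. Against unwounded skin, 5 were called higher and 0 lower in PD day 2 wounds, 4 and 1 in PD day 4 wounds, and 2 and 2 in PD day 12 wounds. In P wounds the counts were 5 and 0 at day 2, 5 and 1 at day 4, and 2 and 3 at day 12. Of all genes tested, 21% to 25.4% were called higher and 18.4% to 21.8% lower over these 6 stages. Ager, the receptor for advanced glycation end products, was higher at all 6 stages, by 2.38 to 2.96 log2 units in PD wounds and 2.43 to 2.76 in P wounds. It averaged 9.23 ± 3.80 CPM (SD, n = 6) in PD day 4 wounds and 6.40 ± 3.06 CPM (n = 5) in P day 4 wounds, against 1.19 ± 0.33 CPM (n = 3) in unwounded skin. Tlr4 was higher at days 2 and 4, by 2.78 and 2.56 in PD wounds and 3.12 and 2.36 in P wounds, and was not called at day 12. Cd69, a lymphocyte activation antigen reported to bind S100A8 and S100A9, was higher at days 2 and 4 (3.13 to 4.37 over both arms). Cd36, a scavenger receptor that binds the same pair in complex with fatty acids, was lower at days 4 and 12. The log2 changes were -1.62 and -2.40 in PD wounds and -1.16 and -2.45 in P wounds. The P day 4 call was lost under several alternatives, among them DESeq2 size factors (edgeR adjusted p = 0.0552) and no filter on low counts (0.0941). Without unwounded replicate 2, both day 4 calls were lost (0.0898 in PD and 0.376 in P wounds).

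The intracellular partners form a list of 7 genes, all tested. The counts higher and lower were 2 and 2, 1 and 2, and 0 and 3 in PD wounds at days 2, 4 and 12, and 3 and 2, 0 and 1, and 0 and 4 in P wounds. Beside these, 21% to 25.4% of all genes tested were called higher and 18.4% to 21.8% lower. Ahnak, a scaffold bound by the S100A10 and annexin A2 complex, was lower at all 6 stages, at 662 ± 159 CPM (SD, n = 6) in PD day 4 wounds and 805 ± 142 CPM (n = 5) in P day 4 wounds, against 1630 ± 113 CPM (n = 3) in unwounded skin. Anxa2 was not called at day 2 or 4 and was lower at day 12 by a log2 change of -0.80 in PD wounds (edgeR adjusted p = 0.00455) and -0.65 in P wounds (adjusted p = 0.019), and both calls were lost without unwounded replicate 3. The P call was also lost on library totals without TMM (-0.40, edgeR adjusted p = 0.148) and without P day 12 replicate 4 or unwounded replicate 1, and the PD call with only the compared libraries fitted. Of 6 genes of the plasmin system that the S100A10 complex feeds, 5 were tested, and 3 were called higher in PD wounds at each day and 3, 4 and 3 in P wounds at days 2, 4 and 12. The share of all genes tested called higher was again 21% to 25.4%. Plaur, the urokinase receptor, was at 473 ± 264 CPM (n = 6) in PD day 4 wounds and 348 ± 175 CPM (n = 5) in P day 4 wounds, against 2.01 ± 0.67 CPM (n = 3) in unwounded skin. Serpinb2, an inhibitor of plasminogen activators, was called lower at day 12, and not at days 2 or 4, by a log2 change of -3.12 in PD wounds and -2.22 in P wounds.

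The rest of the S100 family (9 genes, of which 6 were tested) held members called lower as well as higher. S100b, a gene of glia and dendritic cells, was lower at day 2 by a log2 change of -2.20 in PD wounds (edgeR adjusted p = 4.64e-05) and -2.05 in P wounds (adjusted p = 9.09e-05), and at day 4 by -1.64 and -1.55. S100a16 was higher at all stages but P day 2, by 0.69 to 1.24, and S100a13 at all but P day 12, by 0.69 to 1.0. The S100a13 call in PD day 12 wounds was lost with only the compared libraries fitted (edgeR adjusted p = 0.0506). S100a2 had 0 counts in the 3 unwounded libraries and averaged between 0.139 and 0.366 CPM in the wound groups. It was called higher at every stage, by a log2 change of 5.19 to 6.48 with edgeR and 3.08 to 4.08 with limma-voom. Those sizes rest on an unwounded level of 0 and are loose. In all, 3, 3 and 3 of the 6 were called higher and 1, 2 and 1 lower in PD wounds at days 2, 4 and 12, and 2, 3 and 2 higher and 1, 2 and 1 lower in P wounds. Over all genes tested the shares were 21% to 25.4% higher and 18.4% to 21.8% lower.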

How the data were processed

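Poly(A) RNA of snap-frozen wounds was made into TruSeq Stranded libraries and sequenced on a NovaSeq 6000, per the labels' protocols. The authors deposited 1 table of whole read counts per gene for each of 36 libraries. Trimmomatic, HISAT2 2.1.0, SAMtools 1.9, HTSeq and GRCm39 are named in the submitters' processing notes; the strand setting and annotation release are not given in the sources used here. From these counts, 20657 of 55414 genes were kept (edgeR 4.0.16 filterByExpr, minimum count 10 and total 15; R 4.3.3) and scaled by TMM. A quasi-likelihood model with 1 mean for each of 7 groups gave all contrasts, with p-values adjusted over all kept genes. Likeness used log2 CPM with a prior count of 2. Gene coordinates come from GENCODE M39 (GRCm39). Alternatives used DESeq2 1.42.0, limma 3.58.1 and sva 3.50.0. The members and lists were chosen with earlier results of these data known. The non-members named are the 4 of each list with the smallest adjusted p and the 3 genes most like each member. Depth was 11.81 to 58.38 M counts per library, and no replicate pair agreed within sampling noise (smallest chi-square per degree of freedom 12.35).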

Additional observations from a re-analysis of the deposited data

Results flagged for a closer look

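In 9 of 54 combinations of gene and wound group, a single library stood apart by Dixon's gap test at the 95% level. Chance alone does so in about 1 of 20 where values are normally distributed. The test was run on CPM without a log, where this need not hold, and every flagged library was the highest of its group. Genes that move together were counted apart. S100a3 was at 187.3 CPM in P day 4 replicate 3, beside 0.374 to 1.85 CPM in the other 4 libraries. S100a3 was also at 0.9405 CPM in PD day 2 replicate 5, beside 0.275 to 0.326 CPM, a gap of few counts. S100a4 was at 44.84 CPM in PD day 12 replicate 5, beside 8.33 to 14.2 CPM. S100a4 was at 39.05 CPM in PD day 2 replicate 5, beside 27.6 to 30.7 CPM. S100a7a was at 2.054 CPM in P day 2 replicate 1, beside 0.535 to 0.949 CPM. In PD day 12 replicate 2, S100a8 was at 116.3 CPM, beside 3.65 to 12.2 CPM, and S100a9 at 172.4 CPM, beside 0.781 to 17.9 CPM. In P day 4 replicate 4, S100a9 was at 4941 CPM, beside 1219 to 2240 CPM, and S100a11 at 1073 CPM, beside 598 to 703 CPM. The part of tissue make-up in these values was not tested.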

How the results depend on the processing

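Of 52 called values of the S100 genes, 37 kept their direction and call under every alternative, and 15 did not under at least 1. Of 72 called values of other named genes, 61 kept theirs, 11 lost the call and 0 reversed. For P day 2 against unwounded skin, 6 S100 genes were called (8535 of all genes). It was 7 with 2 surrogate variables (11058), only the compared libraries (8885), limma-voom (12566) or DESeq2 (9164), and 5 with no filter on low counts (7836). All such counts take calls in either direction, so a gene added by an alternative may be lower. In the main fit of P day 2 wounds, the uncalled gene nearest the threshold was S100a7a, which was lower (log2 change -1.84, edgeR adjusted p = 0.0541). For PD against P at day 4, 0 S100 genes were called, against 2 with limma-voom (2056 of all genes), 2 with DESeq2 (182) and 0 to 1 with a library left out. For PD day 4 against day 2, 0 were called (880 of all 20657 genes), against 1 with 2 surrogate variables (2710), 1 with limma-voom (4095) and 1 with DESeq2 (1647). For each change of the PD minus P difference, DESeq2 called 1. With limma-voom, S100a3 in P day 4 wounds against unwounded skin was -0.159 and S100a8 for PD minus P at day 12 was 0.148. With 2 surrogate variables, PD minus P was 0.106 for S100a14 at day 4, and 0.859 for S100a3, 0.053 for S100a7a and 0.116 for S100a14 at day 12. S100a6 at day 12 was 0.003 with DESeq2 size factors, 0.003 with DESeq2 and 0.007 with only the compared libraries. With a library left out, S100a3 PD minus P ran from -0.125 to 0.804 at day 2 and from -0.319 to 0.214 at day 12, and S100a6 at day 12 from -0.162 to 0.067. The cause of these changes was not tested. Whether replicate numbers pair the samples cannot be told. The correlation was over 0.1 in 22 of 37 same-numbered pairs (-0.253 to 0.535), and differently numbered pairs were not compared. With the replicate block, S100a3 PD minus P at day 12 was 0.053, and 5, 5, 6 and 5 S100 genes were called against unwounded skin in PD day 2, PD day 12, P day 4 and P day 12 wounds, and 8 for PD day 12 against day 4. Over all genes the block gave 8816, 9377, 9467, 9334 and 7160 calls, against 8133, 9282, 8945, 9028 and 6468 without it. The calls of S100a11 in PD day 2 wounds (edgeR adjusted p = 0.0587), S100a7a in PD day 12 wounds (0.0637), S100a3 in P day 4 wounds (0.0609) and S100a14 in P day 12 wounds (0.0665) against unwounded skin were lost with the block. Without TMM the median of all genes moved by 0.24 in PD and 0.27 in P day 12 wounds against unwounded skin, and by 0.20 in PD and 0.18 in P wounds between days 12 and 4. Depth limits S100a8, S100a9 and S100a3 in unwounded skin, at 45, 15 and 56 counts.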
